A study of Macaca mulatta with 21 samples.

Results

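Homologous recombination mends DNA double-strand breaks by copying an intact sister chromatid, and the Fanconi anaemia pathway uses the same machinery to clear crosslinks that tie the 2 DNA strands together. In that pathway a core complex attaches ubiquitin to the FANCD2 and FANCI pair at a stalled fork. Nucleases then open the lesion, and BRCA1, PALB2 and BRCA2 act at the resected end. Both routes work mainly in cells that are replicating their DNA, and loss of BRCA1, BRCA2 or PALB2 is lethal to mouse embryos. The roles named below were worked out mostly in human cells, mice and yeast, and are given here as background.

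A set of 35 such genes was chosen by name from these pathways and was read on Affymetrix rhesus macaque arrays. Of the 35, 24 had a probe set with their symbol and all 24 could be tested. The other 11 (FANCA, FANCC, RAD51D, RAD52, XRCC2, MRE11, RAD50, NBN, ATM, ATR and RMI1) had none under the platform's symbols and were not analysed here. The 24 stood among 11143 tested genes of 14133 genes with a probe set. A gene was read from its brightest probe set, and was tested where it reached log2 5 on at least 3 of the 21 arrays. Levels are log2 intensities. They rank samples for a single gene, and they are not compared between genes.

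The arrays covered 7 rhesus macaque cell populations with 3 arrays each, lettered A, B and C and called biological replicates in the labels. Male CRES-1 and female CRES-3 are stem cells of cloned embryos, grown from blastocysts that had been made by somatic cell nuclear transfer. Male RiPS1, female RiPS2 and female RiPS3 are induced pluripotent stem cells, obtained from skin fibroblasts by retroviral delivery of OCT4, SOX2, Klf4 and cMYC. The fibroblasts behind RiPS1 were fetal, those behind RiPS2 came from an adult of 10 years and those behind RiPS3 from an adult of 8 years. Male ORMES23 comes from an in vitro fertilized blastocyst, with no reprogramming step, and the labels use it as the biparental control. The skin fibroblasts were grown from a biopsy of a female adult, 8 years old. Every population, the fibroblasts included, grew on inactivated mouse embryonic fibroblast feeders. RNA came from hand-picked undifferentiated colonies of the stem cells and from trypsinized fibroblasts. Each line is a single derivation, so n = 3 describes the spread between arrays of that line and not between independent lines or animals. The labels do not say whether the fibroblasts and RiPS3 share a donor.

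Marker genes separated the stem cell lines from the fibroblasts as the labels do, while the labelled sex and the identity of each stem cell line were not checked. Of 7 measured pluripotency genes, 6 or 7 averaged log2 5 or more in every stem cell line and 0 did in the fibroblasts, and their mean level was 10.2 to 10.5 in the stem cell lines against 4.14 in the fibroblasts. Of 15 measured fibroblast genes, 11 averaged log2 5 or more in each stem cell line and 14 did in the fibroblasts, with a mean level of 6.69 to 7.34 in the stem cell lines against 10.1 in the fibroblasts. The 3 fibroblast arrays differed in their content of dividing-cell transcripts. The mean of 22 cell cycle genes was 9.74 to 10.0 in the stem cell lines, against 9.47 in fibroblasts A, 7.36 in fibroblasts B and 8.45 in fibroblasts C. No pair of arrays was identical.

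The recombination and crosslink repair genes stood higher in every pluripotent line than in the fibroblasts. A gene was called at an adjusted p under 0.05 with a difference of at least log2 1, which is 2-fold. Of the 24 measured members, 13 were higher in CRES-1 (16.4% of all tested genes were), 16 in CRES-3 (19.1%), 17 in RiPS1 (19.3%), 15 in RiPS2 (17.2%), 18 in RiPS3 (18.3%) and 18 in ORMES23 (18.5%). No member was lower in any of the 6 lines, where the background share was 14.2% for CRES-1, 14.2% for CRES-3, 13.5% for RiPS1, 14.6% for RiPS2, 14.2% for RiPS3 and 14.1% for ORMES23. The median difference over the members was log2 1.18 in CRES-1, 1.63 in CRES-3, 1.43 in RiPS1, 1.37 in RiPS2, 1.58 in RiPS3 and 1.44 in ORMES23, while over all tested genes it lay between 0.02 and 0.05. All 6 comparisons share the same 3 fibroblast arrays, so they are not independent of each other. In RNA pooled from many cells, fewer cells that express a gene and less RNA per cell cannot be told apart. Stem cell RNA came from hand-picked colonies and fibroblast RNA from trypsinized cells, so cell type and harvest cannot be told apart either.

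The same 12 members were higher in all 6 lines, against 12.7% of all tested genes: FANCD2, FANCF, FANCM, BRCA2, BARD1, PALB2, RAD51AP1, RAD54B, RAD54L, BLM, EXO1 and CHEK1. None was lower in all 6, where the background was 10.5%. FANCI and FANCL were higher in 5 lines, FANCG in 4 and BRCA1 in 3. FANCE, BRIP1 and TOPBP1 were higher in 2 lines, and FANCB and RAD51C in 1 line each. XRCC3, RBBP8 and CHEK2 were called in no line. For 16 members each of the 18 pluripotent arrays exceeded each of the 3 fibroblast arrays, which held for 24.5% of all tested genes. For 0 members did the 18 pluripotent arrays all lie below the fibroblasts, which held for 19.1% of all tested genes. FANCB and BRCA2 reached log2 5 on no fibroblast array, so they entered the tests through the pluripotent arrays alone. With values floored at log2 5, BRCA2 differed by log2 0.68 in CRES-1, under the fold limit, and the count of 12 became 11.

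**Figure D1:**
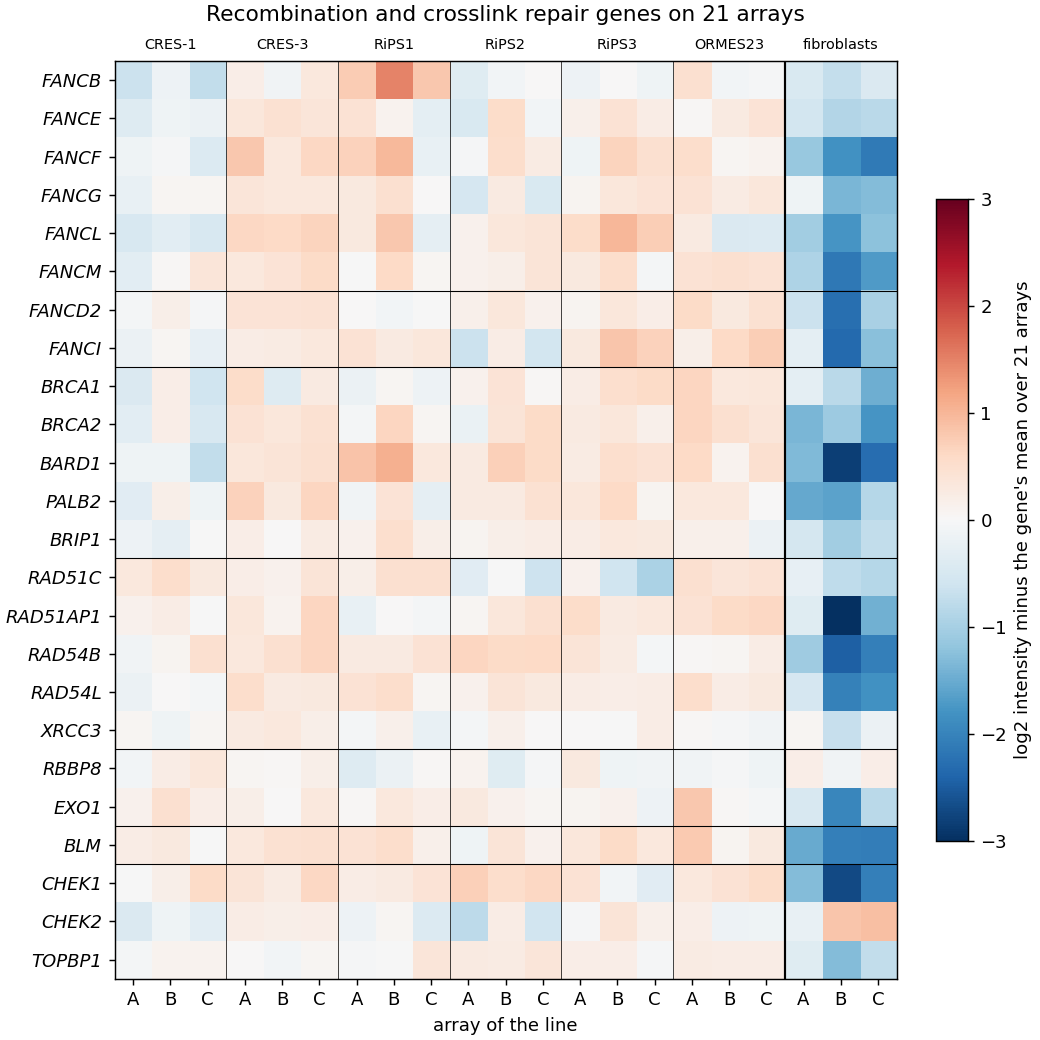
Heat map of the 24 measured members (down the page, boxed by role) on 21 arrays (across, the 6 pluripotent lines and then the fibroblasts). Colour gives the log2 intensity minus the gene's mean over the 21 arrays, red above it and blue below it, with the scale ending at 3 on either side. The 3 fibroblast columns are blue for most members, palest in array A, and CHEK2 is red in fibroblasts B and C.

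Among the Fanconi core complex genes and FANCM, which recognises stalled forks and anchors the complex to them, 6 of 8 were measured, and FANCF and FANCM differed most. FANCF is the adaptor subunit that holds the core complex together. Its levels were 7.10, 7.19 and 6.82 in CRES-1, 8.05, 7.55 and 7.85 in CRES-3 and 7.77, 7.30 and 7.34 in ORMES23. In the induced lines it measured 7.92, 8.21 and 7.01 in RiPS1, 7.19, 7.76 and 7.48 in RiPS2 and 7.10, 7.90 and 7.71 in RiPS3, and the fibroblasts gave 6.10, 5.41 and 5.11. Every pluripotent array lay above every fibroblast array, and the differences ran from log2 1.50 in CRES-1 to log2 2.28 in CRES-3 (SE 0.30, adjusted p at most 0.000273).

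FANCM measured 6.44, 6.80 and 7.11 in CRES-1, 7.07, 7.16 and 7.33 in CRES-3 and 7.20, 7.24 and 7.19 in ORMES23. The induced lines gave 6.75, 7.36 and 6.82 in RiPS1, 6.89, 6.93 and 7.14 in RiPS2 and 7.04, 7.28 and 6.69 in RiPS3, against 5.82, 4.60 and 5.05 in the fibroblasts. The groups did not overlap, and fibroblasts A lay closest to the stem cells. Differences ran from log2 1.63 in CRES-1 to log2 2.05 in ORMES23 (SE 0.25, adjusted p at most 1.68e-05). Of the 3 further FANCM probe sets, the brighter gave a mean difference of log2 1.66 over the 6 lines and the others, near background, log2 0.66 and 0.54.

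FANCL, the ubiquitin ligase subunit that modifies FANCD2 and FANCI, was higher in CRES-3, the 3 induced lines and ORMES23. Its difference in CRES-1 was log2 0.92 (SE 0.24, adjusted p = 0.00262), under the fold limit. Its call in ORMES23 was lost without ORMES23 A and also without fibroblasts B. FANCG, another scaffold subunit, was higher in CRES-3, RiPS1, RiPS3 and ORMES23 by log2 1.19 to 1.27, while CRES-1 (log2 0.89 (SE 0.26, adjusted p = 0.006)) and RiPS2 (log2 0.69 (SE 0.26, adjusted p = 0.0269)) passed the adjusted p and not the fold limit. FANCE, which binds FANCD2, averaged 7.26 to 7.89 over the pluripotent lines and 6.75 ± 0.16 in the fibroblasts (SD, n = 3), and it was higher in CRES-3 (1.14) and RiPS3 (1.02) on the log2 scale. FANCB, the X-linked core subunit, was dim throughout and was higher in RiPS1 alone among the 6 comparisons.

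The ubiquitinated pair itself was higher in the pluripotent lines. FANCD2 measured 7.58, 7.82 and 7.61 in CRES-1, 8.04, 8.05 and 8.07 in CRES-3 and 8.22, 7.94 and 8.10 in ORMES23. In the induced lines its levels were 7.65, 7.56 and 7.64 in RiPS1, 7.79, 7.98 and 7.77 in RiPS2 and 7.71, 7.98 and 7.83 in RiPS3, and in the fibroblasts 7.003, 5.37 and 6.66. All pluripotent arrays exceeded all fibroblast arrays, and within the fibroblasts array B stood far below A and C. Differences ran from log2 1.28 in RiPS1 to log2 1.74 in ORMES23 (SE 0.26, adjusted p at most 0.000326). FANCI, its partner, averaged 8.01 to 8.94 in the pluripotent lines and 7.05 ± 1.02 in the fibroblasts, was higher in 5 lines, and reached log2 0.96 in RiPS2 (adjusted p = 0.0218), just under the fold limit. Fibroblasts A, at 8.05, lay within the range of the pluripotent arrays for FANCI. Another FANCI probe set of similar brightness gave a smaller mean difference over the 6 lines, log2 1.04. It averaged 8.21 in CRES-1 and 7.82 in RiPS2, against 7.37 in the fibroblasts. The dimmest FANCI probe set stayed at 4.96 or less on every array.

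All 5 genes of the BRCA group were measured, and BARD1 showed the largest mean difference of any member. BARD1 pairs with BRCA1 to form a ubiquitin ligase. It measured 8.04, 8.05 and 7.44 in CRES-1, 8.50, 8.57 and 8.66 in CRES-3 and 8.77, 8.28 and 8.65 in ORMES23. The induced lines gave 9.03, 9.24 and 8.49 in RiPS1, 8.44, 8.89 and 8.73 in RiPS2 and 8.42, 8.67 and 8.60 in RiPS3, against 6.84, 5.34 and 5.89 in the fibroblasts. The lowest pluripotent array, CRES-1 C, was above the highest fibroblast array, A. Differences ran from log2 1.82 in CRES-1 to log2 2.90 in RiPS1, or 3.53-fold to 7.45-fold (SE 0.28, adjusted p at most 2.35e-05).

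BRCA2, a tumour suppressor that acts on resected single-stranded DNA, measured 5.57, 6.07 and 5.39 in CRES-1, 6.31, 6.21 and 6.33 in CRES-3 and 6.53, 6.36 and 6.24 in ORMES23. Its levels in the induced lines were 5.82, 6.52 and 5.94 in RiPS1, 5.68, 6.27 and 6.45 in RiPS2 and 6.14, 6.22 and 6.03 in RiPS3. The fibroblasts gave 4.52, 4.80 and 4.10, all under log2 5 and near background. No array of a pluripotent line overlapped the fibroblasts. Counted from log2 5, the rise of BRCA2 was at least 1.60-fold in CRES-1, 2.44-fold in CRES-3, 2.13-fold in RiPS1, 2.19-fold in RiPS2 and in RiPS3, and 2.59-fold in ORMES23. The limma adjusted p was at most 0.000136 on values that were not floored. With values floored at log2 5 it was 0.00702 in CRES-1 and at most 0.000121 in the other lines.

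PALB2, the bridge between BRCA1 and BRCA2, averaged 7.08 to 7.73 in the pluripotent lines and 5.85 ± 0.41 in the fibroblasts, with differences from log2 1.23 in CRES-1 to log2 1.87 in CRES-3 (SE 0.21, adjusted p at most 6.72e-05). BRCA1 averaged 5.59 to 6.31 against 5.02 ± 0.59. It was higher in RiPS2, RiPS3 and ORMES23 by log2 1.05 to 1.29, and its differences were log2 0.57 in CRES-1, 1.00 in CRES-3, just under the limit, and 0.77 in RiPS1. BRIP1, a helicase that binds BRCA1, averaged 5.59 to 6.01 against 4.97 ± 0.26, and was called higher in RiPS1 and RiPS3. The fibroblast arrays gave 5.21, 4.69 and 5.00 for BRIP1, on both sides of log2 5, so no fold bound is given. With values floored at log2 5 both differences lay under the fold limit. Its other probe set never passed 2.97 and carried no usable signal.

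In the strand exchange group, 5 of 8 genes were measured, of which RAD54B, RAD54L and RAD51AP1 rose in all 6 lines, RAD51C in 1 and XRCC3 in none. RAD54B, a DNA translocase related to RAD54L, measured 7.27, 7.44 and 7.83 in CRES-1, 7.69, 7.85 and 8.00 in CRES-3 and 7.39, 7.43 and 7.60 in ORMES23. In the induced lines it was 7.63, 7.64 and 7.81 in RiPS1, 8.00, 7.95 and 7.97 in RiPS2 and 7.74, 7.61 and 7.30 in RiPS3, against 6.29, 4.91 and 5.31 in the fibroblasts. The groups did not overlap, and the differences ran from log2 1.97 in ORMES23 to log2 2.47 in RiPS2 (SE 0.24, adjusted p at most 1.22e-06). RAD54L, a DNA translocase that acts in strand invasion, averaged 6.84 to 7.28 against 5.47 ± 0.82, with differences from log2 1.37 in CRES-1 to log2 1.81 in CRES-3 (adjusted p at most 0.000168).

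RAD51AP1, which stimulates strand invasion, measured 9.19, 9.28 and 9.05 in CRES-1, 9.39, 9.15 and 9.69 in CRES-3 and 9.48, 9.63 and 9.68 in ORMES23. The induced lines gave 8.83, 9.06 and 8.99 in RiPS1, 9.11, 9.39 and 9.54 in RiPS2 and 9.59, 9.31 and 9.36 in RiPS3. The fibroblasts gave 8.69, 6.02 and 7.61, the widest spread of any member in any line. Fibroblasts A lay just under RiPS1 A, the lowest pluripotent array, and far above B. Differences ran from log2 1.52 in RiPS1 to log2 2.15 in ORMES23 (SE 0.40, adjusted p at most 0.00276). RAD51C was higher in ORMES23 alone (log2 1.04 (SE 0.22, adjusted p = 0.000482)), with log2 1.00 in CRES-1 and 1.00 in RiPS1 lying just under the limit. XRCC3 differed by log2 0.22 to 0.51 and was not called.

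Of the end resection genes, EXO1 and RBBP8 were measured. EXO1, the exonuclease that extends resection, measured 7.09, 7.42 and 7.16 in CRES-1, 7.13, 6.97 and 7.27 in CRES-3 and 7.75, 6.99 and 6.90 in ORMES23. In the induced lines its levels were 6.98, 7.27 and 7.16 in RiPS1, 7.25, 7.08 and 7.02 in RiPS2 and 7.04, 7.07 and 6.81 in RiPS3, against 6.48, 5.00 and 6.15 in the fibroblasts. Every pluripotent array was above the fibroblasts, with B the lowest, and the differences ran from log2 1.10 in RiPS3 to log2 1.35 in CRES-1 (SE 0.28, adjusted p at most 0.00206). The other EXO1 probe set stayed at 3.89 or less on every array and carried no usable signal. RBBP8, which starts resection together with MRE11, RAD50 and NBN, averaged 7.54 to 7.87 in the pluripotent lines and 7.80 ± 0.17 in the fibroblasts. Its differences lay between log2 -0.27 and 0.06, with the smallest adjusted p at 0.133.

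BLM, the helicase that dissolves joined recombination intermediates, had the smallest p of the members in every line. It measured 8.93, 9.02 and 8.71 in CRES-1, 9.02, 9.17 and 9.21 in CRES-3 and 9.49, 8.79 and 9.02 in ORMES23. The induced lines gave 9.15, 9.25 and 8.88 in RiPS1, 8.59, 9.09 and 8.86 in RiPS2 and 9.05, 9.28 and 9.03 in RiPS3, against 7.20, 6.66 and 6.63 in the fibroblasts. The pluripotent arrays stood well clear of the fibroblasts, whose spread was narrower here than for most members. Differences ran from log2 2.02 in RiPS2 to log2 2.30 in CRES-3, or 4.05-fold to 4.92-fold (SE 0.18, adjusted p at most 3.51e-08).

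The 3 measured checkpoint genes did not behave alike. CHEK1, the kinase that ATR activates when replication stalls, measured 7.88, 8.09 and 8.48 in CRES-1, 8.28, 8.15 and 8.52 in CRES-3 and 8.21, 8.33 and 8.45 in ORMES23. In the induced lines it measured 8.12, 8.17 and 8.31 in RiPS1, 8.63, 8.43 and 8.52 in RiPS2 and 8.34, 7.82 and 7.56 in RiPS3, against 6.59, 5.20 and 5.85 in the fibroblasts. No arrays overlapped between the groups, and the differences ran from log2 2.03 in RiPS3 to log2 2.65 in RiPS2 (SE 0.26, adjusted p at most 2.05e-06).

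TOPBP1, the activator of ATR, measured 8.96, 9.14 and 9.13 in CRES-1, 9.04, 8.94 and 9.09 in CRES-3 and 9.27, 9.24 and 9.24 in ORMES23. The induced lines gave 8.98, 9.01 and 9.38 in RiPS1, 9.29, 9.26 and 9.39 in RiPS2 and 9.22, 9.23 and 9.00 in RiPS3, against 8.67, 7.73 and 8.30 in the fibroblasts. Its arrays did not overlap either, but the differences were small, from log2 0.80 in CRES-3 to log2 1.09 in RiPS2 (SE 0.17, adjusted p at most 0.000496), and passed the fold limit in RiPS2 and ORMES23.

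CHEK2, the kinase downstream of ATM, is named after its values were seen, since it was the member with the most negative mean difference. It measured 7.66, 7.95 and 7.78 in CRES-1, 8.31, 8.27 and 8.30 in CRES-3 and 8.29, 7.94 and 7.97 in ORMES23. In the induced lines its levels were 7.93, 8.16 and 7.69 in RiPS1, 7.30, 8.32 and 7.53 in RiPS2 and 8.06, 8.47 and 8.25 in RiPS3, against 7.87, 8.93 and 8.98 in the fibroblasts. Fibroblasts A lay among the pluripotent arrays, and B and C above all of them. The differences were log2 -0.88 (SE 0.26, adjusted p = 0.00758) in RiPS2, log2 -0.80 (SE 0.26, adjusted p = 0.0145) in CRES-1 and log2 -0.67 (SE 0.26, adjusted p = 0.0332) in RiPS1. In CRES-3 (-0.30), RiPS3 (-0.34) and ORMES23 (-0.53) the adjusted p was above the limit, and no line reached the fold limit.

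**Figure D2:**
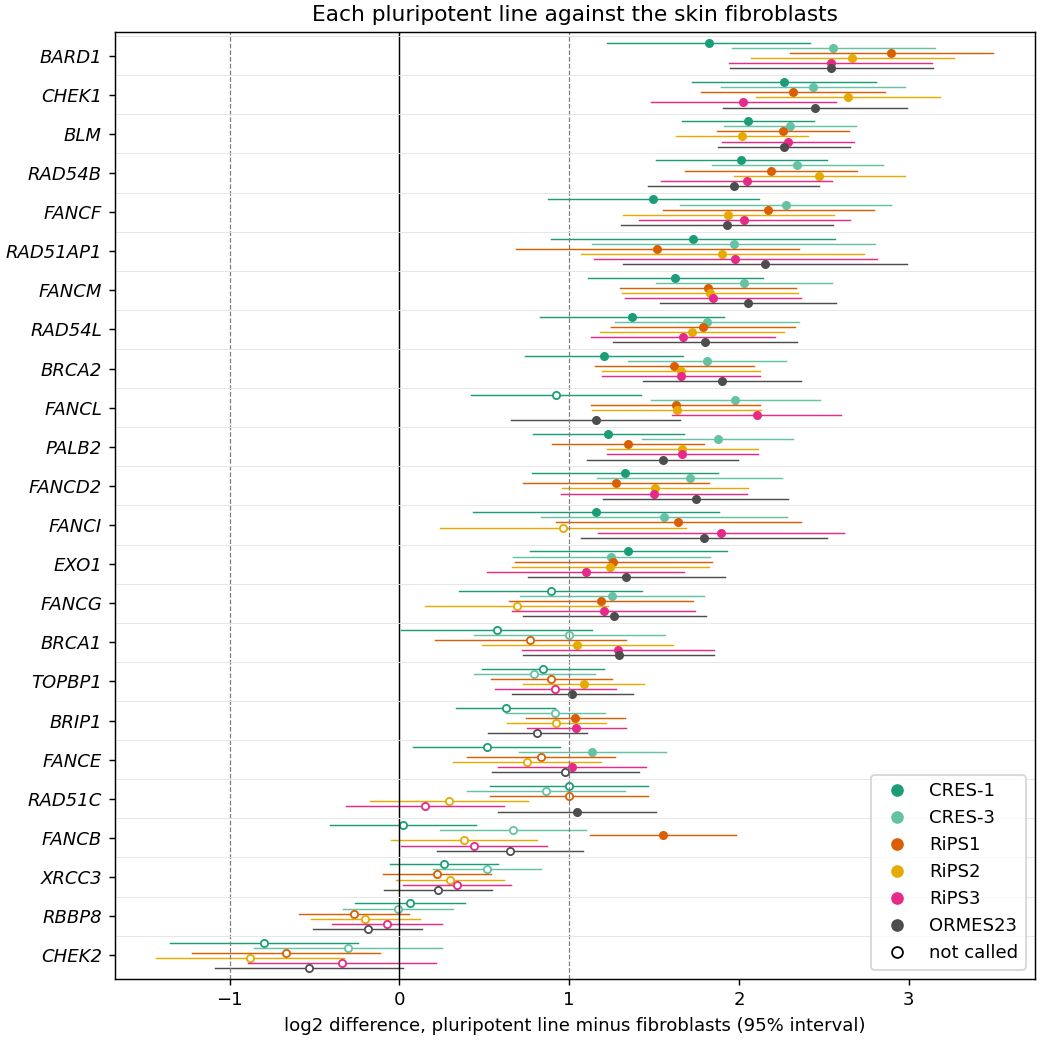
Log2 difference of each pluripotent line minus the fibroblasts (horizontal axis) for the 24 members, ordered by their mean over the 6 lines. Points are estimates from the fit, bars their 95% intervals, filled points called genes and open points genes that were not called. Dashed lines mark log2 1 on either side. BARD1 stands at the top, between 1.82 and 2.90, and CHEK2 at the bottom, between -0.88 and -0.30.

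The size of these differences depended on which fibroblast array served as the base. Over the 24 members the mean level was 6.69 in fibroblasts A, 5.82 in B and 6.19 in C, against 7.30 to 7.68 in the pluripotent lines. Array A was the highest of the 3 for 20 members (43.3% of all tested genes), and B was the lowest for 18 (36.0% of all tested genes). The median SD of the members was 0.55 in the fibroblasts and 0.12 to 0.22 in the pluripotent lines, while over all tested genes it was 0.22 in the fibroblasts. The mean of the 6 lines exceeded fibroblasts A by a median of log2 0.67 over the members, with 9 of 24 at log2 1 or more (16.9% of all tested genes). It exceeded B by 1.91, with 17 members past log2 1 (19.5%), and C by 1.45, with 15 (18.4%).

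The cell cycle list moved with the members. The median difference of its 22 genes was log2 0.32 to fibroblasts A, 2.68 to B and 1.54 to C. Of these genes 15 were higher in all 6 lines, among them CCNE1 (mean difference log2 2.10), MCM3 (3.08), MCM2 (2.54) and CDC6 (1.61). Named after their values were seen, TYMS, RRM1 and E2F1 were called in 0 lines, and CCNE2 was lower in 5 of 6, with line means of 4.29 to 4.93, under log2 5, against 5.83 in the fibroblasts. The part of cell division in the members' differences was not tested.

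Without fibroblasts A the members called higher in all 6 lines numbered 16, without B they numbered 9, and without C they numbered 12. The 3 lost without B were FANCD2, RAD51AP1 and EXO1. Without B the counts per line were 10 in CRES-1, 16 in CRES-3, 12 in RiPS1, 13 in RiPS2, 14 in RiPS3 and 14 in ORMES23. FANCF, FANCM, BRCA2, BARD1, PALB2, RAD54B, RAD54L, BLM and CHEK1 were called in all 6 lines whichever fibroblast array was left out.

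**Figure D3:**
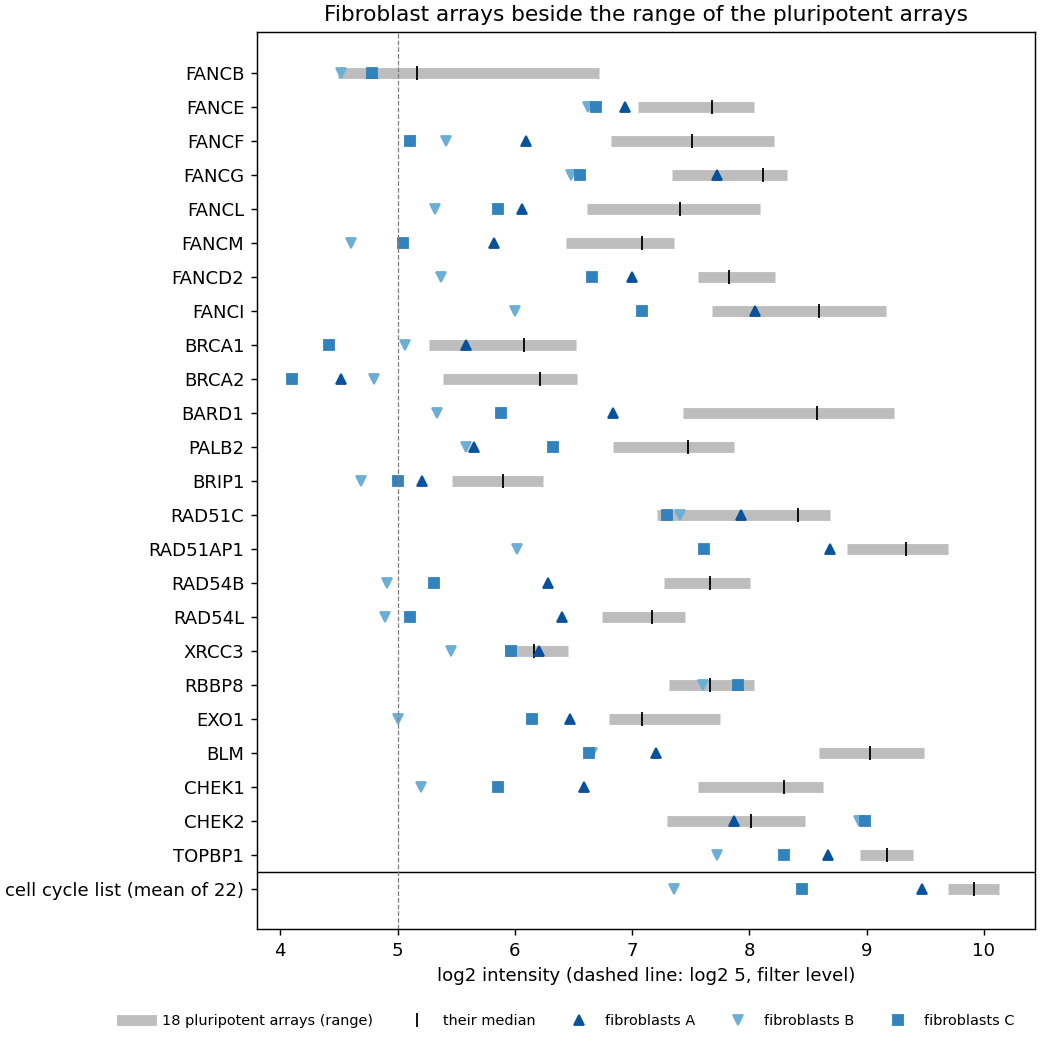
Log2 intensity (horizontal axis) of each member in the 18 pluripotent arrays (grey bar from lowest to highest, tick at the median) and in fibroblasts A, B and C (symbols), with the mean of 22 cell cycle genes in the bottom line. Fibroblasts A lies nearest to the grey bar for most members and B or C farthest from it. CHEK2 has 2 fibroblast arrays to the right of its bar.

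Between the pluripotent lines, calls were rare among the members and among all tested genes. The 5 comparisons with ORMES23 share its 3 arrays. ORMES23 is a single male derivation, so reprogramming and line cannot be told apart in them, nor sex for the female lines. In these comparisons 0 members were called. The background share was 0% for CRES-1, 0.996% for CRES-3, 2.4% for RiPS1, 0.458% for RiPS2 and 0.763% for RiPS3. At an unadjusted p under 0.05, limma gave 5 members for CRES-1 (11.4% of all tested genes), 1 for CRES-3 (16.9%), 1 for RiPS1 (20.8%), 3 for RiPS2 (11.9%) and 2 for RiPS3 (14.6%). The 95% intervals of single members were 0.29 to 0.83 wide on either side on the log2 scale. These intervals use the spread pooled over all populations, the fibroblasts included. The members' median SD was 0.55 in the fibroblasts and 0.12 to 0.22 in the pluripotent lines. For members that varied most in the fibroblasts, the intervals are thus wider than the lines compared would give, and shifts under that size could be missed.

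One of the 3 ORMES23 arrays stood apart in its lineage markers. The mean of 5 endoderm genes was 9.22 in ORMES23 A, against 7.37 in B, 6.81 in C and 6.06 to 8.02 in the other pluripotent arrays. Means in ORMES23 A, B and C were 5.73, 6.87 and 6.77 for 6 trophoblast genes and 3.53, 5.22 and 5.36 for 2 neural ectoderm genes. For 7 mesoderm genes the mean was 6.63 in A, the lowest of the 3. These 3 values of array A lay within the range of the other pluripotent lines. The mean of the 24 members was 7.73 in A, 7.55 in B and 7.58 in C, and that of the cell cycle genes 10.13, 9.93 and 9.97. FANCL (7.35, against 6.67 and 6.69) and EXO1 (7.75, against 6.99 and 6.90) were among several members highest in array A. RAD51AP1, CHEK1, RAD54B and FANCI were among those lowest in it. The share of all tested genes that was highest in array A was not counted. Without it, 1 member was called in CRES-3 (FANCL), 1 in RiPS1 (FANCB) and 1 in RiPS3 (FANCL) against ORMES23, and 0 in CRES-1 and RiPS2. The part of endoderm-marker RNA in these results was not tested.

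CRES-1 had the lowest line mean of the 6 for 11 of 24 members, and for 19.8% of all tested genes. Its members differed from ORMES23 by a median of log2 -0.35, with 20 of 24 below 0, and the largest single difference was BARD1 at log2 -0.72 (SE 0.28, adjusted p = 0.348). The smallest adjusted p belonged to BRCA2, at 0.26. The cell cycle list stood at 9.74 ± 0.07 in CRES-1 and 10.01 ± 0.11 in ORMES23 (SD, n = 3), and its part in the members' shift was not tested.

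Cloned and induced lines of the same labelled sex gave different counts. In the female pair, CRES-3 against RiPS3, 0 members were called (0.0359% of all tested genes), and 1 had an unadjusted p under 0.05 in limma (7.91%). In the male pair, CRES-1 against RiPS1, 2 members were lower, FANCB and BARD1 (2.14%), and 6 had an unadjusted p under 0.05 (22%). BARD1 averaged 7.84 ± 0.35 in CRES-1 and 8.92 ± 0.39 in RiPS1 (SD, n = 3), with 3 arrays of CRES-1 at 8.04, 8.05 and 7.44 and those of RiPS1 at 9.03, 9.24 and 8.49. All CRES-1 arrays lay below all RiPS1 arrays, by log2 -1.08 (SE 0.28, adjusted p = 0.0276). The difference was not called without CRES-1 A, CRES-1 C, RiPS1 A or RiPS1 B. Arrays of these lines with the same letter deviated together, and with the letters as a replicate block in a fit of the 6 arrays alone the adjusted p was 0.00711. Between the 2 pairs, BARD1 differed by log2 1.09 (female minus male, SE 0.40, adjusted p = 0.133), so the pairs were not shown to differ for it.

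FANCB was the member that varied most between pluripotent lines. It measured 4.59, 5.07 and 4.49 in CRES-1, 5.43, 5.13 and 5.53 in CRES-3 and 5.99, 6.72 and 6.04 in RiPS1. In the other lines it was 4.86, 5.14 and 5.23 in RiPS2, 5.07, 5.25 and 5.09 in RiPS3 and 5.72, 5.14 and 5.19 in ORMES23, against 4.78, 4.52 and 4.79 in the fibroblasts. RiPS1 stood above every other array, and CRES-1 sat at the fibroblast level, near background. With values floored at log2 5, CRES-1 minus RiPS1 was log2 -1.23. The limma adjusted p was 0.000161 on values that were not floored and 0.000287 with values floored at log2 5. RiPS1 differed from ORMES23 by log2 0.90 (SE 0.20, adjusted p = 0.00982), under the fold limit. Counted from log2 5, RiPS1 was at least 2.38-fold higher than the fibroblasts (limma adjusted p = 3.01e-06 on values that were not floored, 7.10e-06 with values floored). A dimmer FANCB probe set had the same order at its ends, with 4.66 in RiPS1 and 3.66 in CRES-1, both under log2 5.

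FANCB lies on the X chromosome in the rhesus RefSeq annotation, and X inactivation is the subject named in the series title. Its mean over the 3 female lines was 5.19, against 5.44 over the 3 male lines, a difference of log2 -0.25 (exact permutation test over 6 line means, two-sided p = 0.8). With 3 lines of each sex the smallest possible p is 0.1, so this test cannot show or exclude a difference by sex, and the CRES-1 mean in it is near background. Lines of a labelled sex overlapped, since the highest and the lowest lines, RiPS1 and CRES-1, are both male.

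A test across all 6 pluripotent lines, which called a gene at an adjusted p under 0.05 with a range of line means of at least log2 1, called 2 members, against 7.52% of all tested genes. They were FANCB (range 1.23 with values floored at log2 5, adjusted p = 0.000988) and FANCL (range 1.18, adjusted p = 0.00934). FANCL measured 6.61, 6.77 and 6.62 in CRES-1, 7.71, 7.70 and 7.76 in CRES-3 and 7.38, 7.91 and 6.83 in RiPS1. It was 7.22, 7.43 and 7.48 in RiPS2, 7.63, 8.09 and 7.83 in RiPS3 and 7.35, 6.67 and 6.69 in ORMES23, against 6.06, 5.32 and 5.86 in the fibroblasts. CRES-3 and RiPS3 had the highest means, CRES-1 and 2 arrays of ORMES23 were lowest, and the RiPS1 arrays spanned most of the range. In RiPS3 FANCL exceeded ORMES23 by log2 0.95 (SE 0.24, adjusted p = 0.0469), under the fold limit.

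RAD51C, named here after its values were seen, passed the same test's adjusted p (0.0156) with a range of 0.90. Its levels were 7.82, 8.15 and 7.54 in RiPS2 and 8.29, 7.58 and 7.22 in RiPS3, against 8.64, 8.54 and 8.59 in ORMES23. In the remaining lines it measured 8.48, 8.69 and 8.46 in CRES-1, 8.37, 8.28 and 8.56 in CRES-3 and 8.35, 8.64 and 8.64 in RiPS1. The arrays of RiPS2 and all but A of RiPS3 were below every array of the other 4 lines, and near the 7.93, 7.41 and 7.30 of the fibroblasts. RiPS3 differed from ORMES23 by log2 -0.90 (SE 0.22, adjusted p = 0.0446) and RiPS2 by log2 -0.75 (SE 0.22, adjusted p = 0.135). A separate RAD51C probe set gave 6.89 in RiPS2 and 6.89 in RiPS3, against 7.45 to 7.72 in the other pluripotent lines. These 2 lines are the induced lines from adult donors and also the female induced lines, so donor age, sex and line cannot be told apart.

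**Figure D4:**
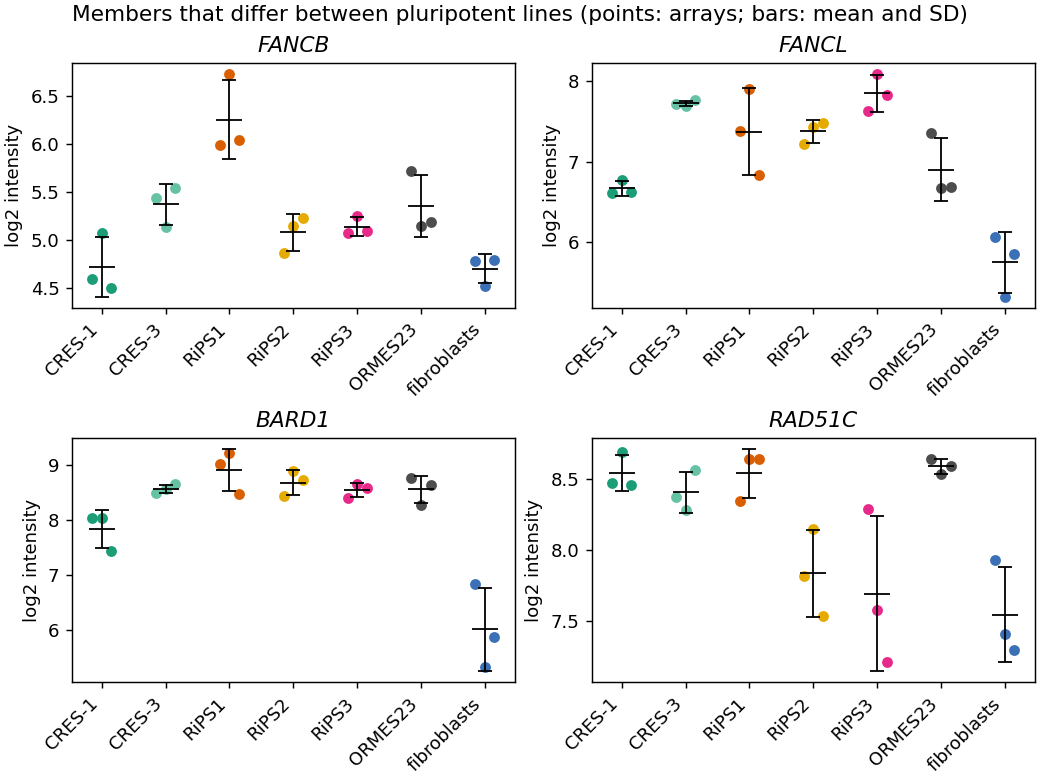
Log2 intensity (vertical axis, its range set per gene) of FANCB, FANCL, BARD1 and RAD51C in the 6 pluripotent lines and the fibroblasts. Points are arrays, and the black bars give the mean and SD (n = 3). FANCB stands out in RiPS1, at 6.25, and RAD51C is low in RiPS2 and RiPS3, at 7.84 and 7.70.

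Other genes of the same pathways, 65 by list, had 46 with a probe set and 44 tested. Of the 44, 11 were higher in all 6 lines, and the median of the mean difference was log2 0.70, against 1.51 for the 24 members. The 4 with the smallest p were RMI2 (mean difference log2 3.62), which works with BLM, MAD2L2 (1.61), which limits resection, RIF1 (2.28), which does the same, and WEE1 (3.39), the kinase that delays mitosis. ERCC1, a subunit of a crosslink nuclease named here because it was the sole gene of the list that was lower, fell in 2 of 6 lines (mean log2 -0.88).

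Other repair pathways gave mixed counts. Of 8 tested end joining genes, 3 were higher in all 6 lines, DCLRE1C (2.42), PRKDC (1.71) and XRCC4 (1.39), while XRCC5 (0.86) stayed under the fold limit. Of 4 tested mismatch repair genes, MSH6 (2.25) and PMS2 (1.33) were higher in all 6, MLH3 (1.10) in 5 and PMS1 (0.54) in none. Of 12 tested base excision repair genes, 4 were higher in all 6, namely UNG (2.57), PARP1 (2.24), MUTYH (1.79) and LIG3 (1.43). Of 12 tested nucleotide excision repair genes, 0 were higher in all 6. GTF2H5 (0.85) was higher in 1, GTF2H4 (0.56) and GTF2H1 (-0.80) were not called, and DDB2 (-1.01), a damage sensor, was lower in 3. Values in brackets are mean log2 differences of the 6 lines to the fibroblasts, to be read against the 12.7% of all tested genes that were higher in all 6.

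**Figure D5:**
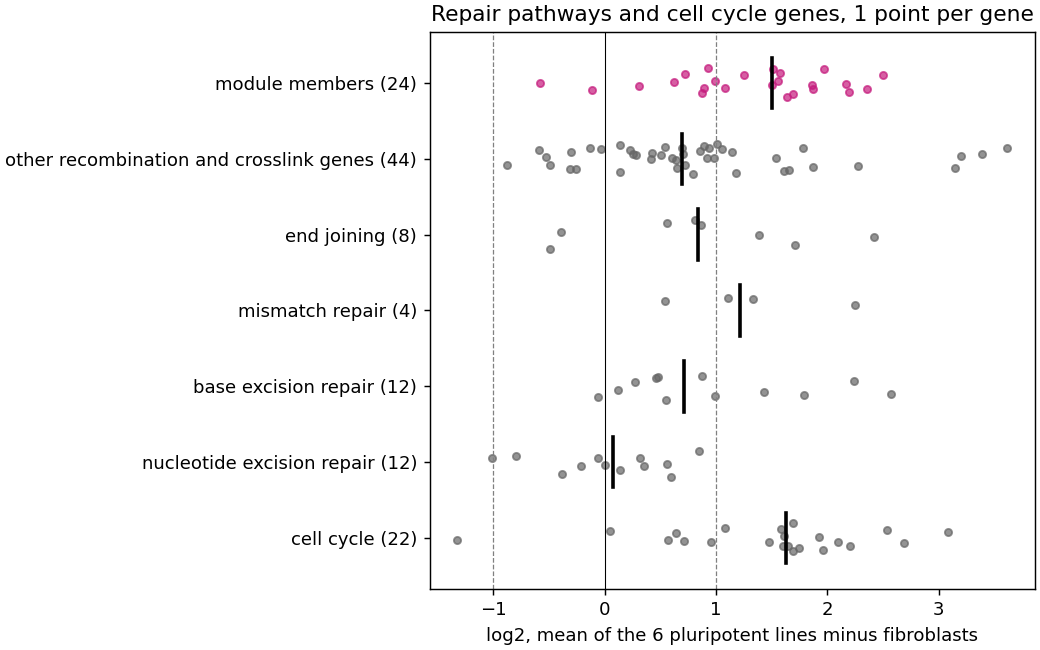
Mean log2 difference of the 6 pluripotent lines to the fibroblasts (horizontal axis), 1 point per tested gene, for the 24 members and 6 other lists, with the number of tested genes in brackets. Black ticks are medians, and dashed lines mark log2 1 on either side. The medians are 1.51 for the members, 0.70 for the other recombination genes, 0.07 for nucleotide excision repair and 1.63 for the cell cycle list.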

How the data were processed

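The authors deposited log2 intensities per probe set from RMA (robust multi-array average), per the submitters' processing notes. Neither the RMA version nor the chip description is given in the sources used here. Values over 52865 probe sets ran from 2.09 to 14.7 and array medians from 4.98 to 5.14, so no further normalization was applied. Probe sets with a single gene symbol in the platform annotation (24969) were used, and the brightest per gene was kept. Of the members, 17 had 1 probe set and 7 had several. One linear model of 7 line means, with 14 residual degrees of freedom and moderated variances, was fitted in limma (version 3.58.1, under R 4.3.3). P-values are two-sided, with Benjamini-Hochberg adjustment across the 11143 tested genes. The procedure was tested on simulated data that gave each gene 1 spread in all populations. That test does not cover the wider spread of the members in the fibroblasts. Errors are the standard error (SE) of a difference or the SD over 3 arrays. No depth applies to arrays, and their number limits the precision. A fold for a gene under log2 5 on every array of the dimmer group is a bound counted from log2 5. Members and lists were chosen by gene name, with earlier results of these data known. Values on every array are given for the 2 members per role with the largest mean difference to the fibroblasts (1 in roles with 2 or fewer measured), for members called between pluripotent lines and for FANCB. Other lists show the 4 genes of smallest p. The letters A, B and C did not pair arrays over the lines as a whole (63 same-letter correlations of deviations, -0.41 to 0.44, median 0.01). CRES-1 with RiPS1 was the one pair of lines with all 3 correlations over 0.1 (0.318, 0.330 and 0.348), and the labels do not say why. The interaction of sex with cloned against induced line, its repeat with floored values, and a blocked fit of CRES-1 and RiPS1 alone were added after the data were seen. No sequences are printed.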

Additional observations from a re-analysis of the deposited data

Results flagged for a closer look

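FANCB drew attention because its difference between cloned and induced lines was not the same in the pairs of either labelled sex. The cloned line minus the induced line was log2 -1.54 in the male pair, CRES-1 and RiPS1, and log2 0.23 in the female pair, CRES-3 and RiPS3. The difference between these differences, female minus male, was log2 1.77 (SE 0.29, adjusted p = 0.00243, limma interaction over all tested genes). Each sex has 1 pair of lines, so sex and line cannot be told apart. The CRES-1 mean of 4.71 lies under log2 5, so neither the male difference nor the 1.77 is a measured size. With values floored at log2 5 the difference between pairs was log2 1.46 (adjusted p = 0.00254). This test was added after the values of FANCB were seen, so it is no independent evidence.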

How the results depend on the processing

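Results were recomputed without the filter on dim genes and with it at log2 6, with the mean of all probe sets, with arrays centred on their medians, with quantile normalization, on the arrays compared alone, without the fold limit, with values floored at log2 5, with array weights, with a trended robust prior, with a replicate block, and without each array in turn. Among 102 called single differences and ranges, 1737 recomputed values kept their direction, 62 of them fell below a limit, and 26 differences lost their call at least once, most often without fibroblasts B. EXO1 lost its call in all 6 lines when its dim probe set was averaged in. Counts of members higher than fibroblasts stayed within 1.5 times under every setting run. The count lower than fibroblasts became 1 (CHEK2) in CRES-1 with array weights and without the fold limit, in RiPS1 without the fold limit, and in RiPS2 with array weights and without the fold limit. Leaving out an array gave 0 to 1 there (CHEK2, without fibroblasts A in those 3 lines and without RiPS2 B in RiPS2). Against ORMES23, array weights called 1 member each in CRES-3 (FANCL), RiPS1 (FANCB), RiPS2 (FANCI) and RiPS3 (FANCL). Without the fold limit there was 1 in RiPS1 (FANCB) and 2 in RiPS3 (FANCL and RAD51C). Leaving out an array gave 0 to 1 in CRES-3 (without ORMES23 A) and in RiPS1 (without ORMES23 A, RiPS1 A or RiPS1 C), and 0 to 2 in RiPS3 (1 without ORMES23 A, 2 without RiPS3 A). For CRES-3 against RiPS3 it gave 0 to 1 (RAD51C, without RiPS3 A). For CRES-1 against RiPS1 the count was 1 with the log2 6 filter (BARD1), 1 with quantile normalization (FANCB), and 1 to 2 leaving out an array. The test across 6 lines called 1 member with the log2 6 filter, which drops FANCB, and 4 with array weights (FANCB, FANCI, FANCL and BARD1). Beyond the filter, the cause of these changes was not tested. With a replicate block of the letters A, B and C, each of these counts was as reported, such as 12 members higher in all 6 lines, and a block in CRES-1 and RiPS1 alone, the lines whose same-letter arrays deviated together, called the same 2 members, FANCB and BARD1. The signal of members under log2 5 limits what can be said of FANCB, BRCA2 and BRIP1.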
